A study of Fragaria x ananassa with 9 samples.

Results

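Heat shock proteins are chaperones that keep other proteins soluble and folded. Small heat shock proteins (small HSPs) hold unfolded proteins without using ATP, HSP70 refolds them in cycles of ATP use with DnaJ partners, and HSP90 completes the folding of many signaling proteins. Heat stress transcription factors (HSFs, also called heat shock factors) bind the promoters of chaperone genes and switch them on in heat, but many chaperones are also made during normal growth, pollen formation and seed maturation.

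Of 50285 unigenes (the longest assembled transcript of each cluster), 85 had a SwissProt match whose description names a heat shock protein or a heat stress transcription factor. Of these, 81 reached 1 TPM (a relative transcript abundance, scaled for length and for the total of the library) in at least 3 of 9 libraries and are described here. They comprised 18 small HSP, 25 HSP70, 12 HSP90 and 25 HSF unigenes, and 1 relative of AHSA1, an activator of HSP90 known from animals. The 4 matches below that limit were 2 small HSP, 1 HSP70 and 1 HSP90 unigene.

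Petals of Sijihong, a cultivar of pink-flowered strawberry (Fragaria × Potentilla) with dark red flowers, were used for all libraries, without any treatment named in the labels. There were 3 biological replicates at each of 3 stages, namely young buds (PF_L), buds in which color first appeared (PF_Z, beginning coloration) and big buds (PF_D). Names such as PF_L2 stand for stage and replicate. The stages were compared on log2(TPM + 1) with limma over all 47924 unigenes that passed the same limit, and a unigene was called where its log2 fold change reached 1 or −1 with an adjusted p below 0.05. Every fold change below is on that scale, where the added 1 shrinks the change of unigenes at a few TPM. The read depth behind a value cannot be had from TPM, and 3 libraries against 3 cannot reach an exact permutation p below 0.1.

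A unigene's name is that of its best protein match, mostly in another species. The Nr match of 75 of the 81 was a Fragaria protein, and 76 Nr descriptions also name a heat shock or heat stress protein. Lengths ran from 208 to 2896 bp (median 1017 bp), and 17 unigenes were shorter than 500 bp. The digits after DN in an identifier mark a wider Trinity cluster than that of a single unigene. Such a wider cluster was shared with another member by 36 unigenes in 15 clusters. Some of these match different proteins, such as HSFA3 (DN25663_c1_g2) and HSFA6b (DN25663_c1_g1). Where they are near copies, reads can be split between them, so their separate values are uncertain.

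The petal markers were present throughout: the summed TPM of 2 unigenes matching the petal and stamen identity protein PMADS 2 was 1897 to 2009 in PF_L, 1618 to 2003 in PF_Z and 1560 to 1820 in PF_D. Light-harvesting proteins of green tissue (28 unigenes, none at 0 in all libraries) summed to 4668 to 7239 TPM in PF_L, 1558 to 5678 TPM in PF_Z and 478 to 1838 TPM in PF_D. Pollen and anther markers (8 unigenes, none at 0 in all libraries) summed to 83.2 to 165.0 TPM over the 9 libraries, but its unigenes moved in opposite directions with the stage. LAT52 (DN11388_c0_g1), a protein of late pollen in tomato, had 0.44 to 1.23 TPM in PF_L, 2.04 to 4.77 TPM in PF_Z, and 63.8, 7.82 and 31.5 TPM in PF_D. A pollen extensin (DN23468_c0_g2) had 0.29 to 0.85 TPM in PF_L, 0.45 to 0.64 TPM in PF_Z, and 21.7, 3.41 and 11.7 TPM in PF_D, whereas a match to the pollen protein SF21 (DN22857_c0_g3) had 32.5 to 40.9 TPM in PF_L, 21.2 to 36.2 TPM in PF_Z and 8.40 to 13.3 TPM in PF_D. The light-harvesting sum was thus lower, and LAT52 and the extensin DN23468_c0_g2 were higher, in every PF_D library than in every PF_L library. Of the other pollen extensin matches, DN20639_c0_g7 was higher in every PF_D library too. DN17570_c0_g2 was lower, with 15.3 to 18.8 TPM in PF_L and 1.49 to 3.42 TPM in PF_D. Matches to SF21 also went both ways. The part of either marker list in the stage differences below was not tested. In whole petals, fewer cells of a type and less RNA per cell cannot be told apart.

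One library stood apart before any stage was compared. In PF_L2, a young bud replicate, the summed TPM of the 18 small HSPs was 1612, against 359 in PF_L1 and 332 in PF_L3. The same sum was 302, 260 and 299 TPM in PF_Z and 295, 270 and 277 TPM in PF_D. The 8 libraries other than PF_L2 therefore lay between 260 and 359 TPM, and the PF_L mean of 767 ± 731 TPM (SD, n = 3) was carried by 1 library. Markers of PF_L2 did not stand out in the same way: its light-harvesting sum of 4668 TPM was the lowest of the young bud stage, where PF_L1 had 7239 and PF_L3 had 5421 TPM, and its pollen and anther sum of 111 TPM was below the 125 TPM of PF_L1 and the 119 TPM of PF_L3. What set PF_L2 apart cannot be read from the labels, and its cause was not tested.

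**Figure D1:**
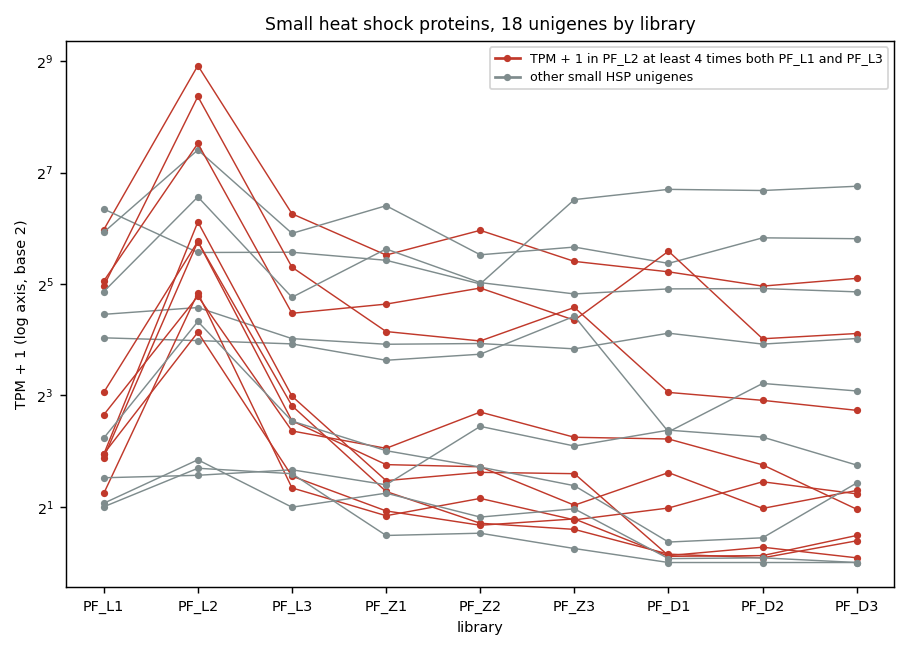
TPM + 1 (log axis) of each of the 18 small HSP unigenes in the 9 libraries, 1 line per unigene, with red lines for the 9 unigenes at least 4-fold above both stage mates in PF_L2. The red lines peak in PF_L2 and return to a low level in PF_L3.

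Counted over unigenes, TPM + 1 in PF_L2 was at least 4-fold above both PF_L1 and PF_L3 for 14 of the 81 members (17.3%), against 79 of all 47924 unigenes (0.165%). The 14 were 9 small HSPs, 3 HSP90s, 1 HSP70 and 1 HSF. They made up 17.7% of those 79 unigenes and 8 of the first 20 by ratio. Over all unigenes PF_L2 was no more deviant than other libraries, whose shares ran from 0.111% in PF_L3 to 0.313% in PF_D1. In those other libraries no member passed the same limit, except 1 in PF_D3. PF_L2 also held the highest value of the 9 libraries for 15 of 18 small HSPs, 8 of 25 HSP70s, 6 of 12 HSP90s and 5 of 25 HSFs, against 13.5% of all unigenes. The median log2 ratio of PF_L2 to the mean of its stage mates was 2.10 for small HSPs, 0.36 for HSP90s, 0.23 for HSFs and 0.08 for HSP70s, and −0.03 over all unigenes. The unigenes described in the next paragraphs for their level in PF_L2 were chosen after their values were seen, and no test was run on that choice.

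**Figure D2:**
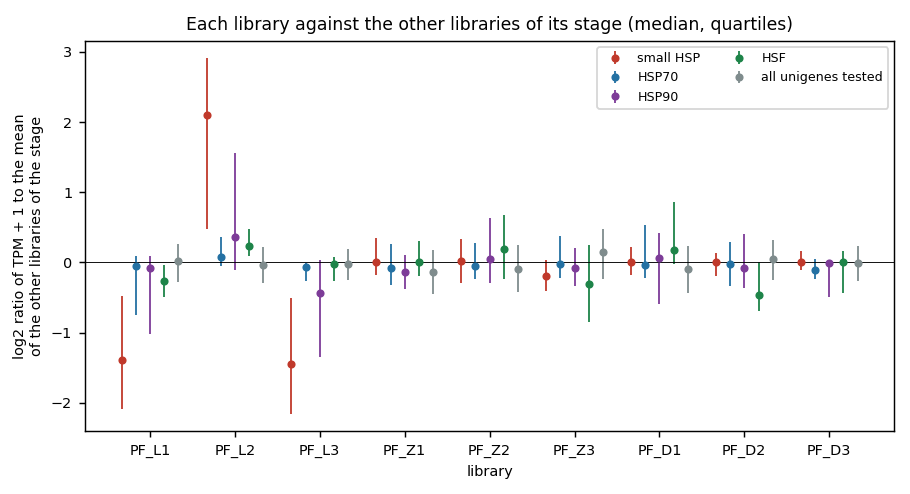
Median log2 ratio of TPM + 1 in each library to the mean of the other libraries of its stage, with quartiles, for the small HSPs (red), HSP70s (blue), HSP90s (purple), HSFs (green) and all unigenes tested (grey). Small HSPs are at 2.10 in PF_L2, and PF_L1 and PF_L3 lie low for them because PF_L2 is 1 of the libraries they are set against.

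The small HSPs that were high in PF_L2 belonged to the cytosol and to several organelles. HSP17.9-D (DN16575_c0_g1), a class II protein of the cytosol, had 483 TPM in PF_L2, against 61.8 in PF_L1 and 75.6 TPM in PF_L3. HSP18.2 (DN16011_c0_g1), a class I cytosolic protein, had 329 TPM in PF_L2, against 30.1 in PF_L1 and 38.4 TPM in PF_L3. For the mitochondrial HSP23.6 (DN13481_c0_g1), PF_L2 had 68.2 TPM, against 2.84 in PF_L1 and 6.92 TPM in PF_L3. In each of the 3, PF_L2 was far above both other young bud libraries, which differed least from each other in HSP17.9-D and HSP18.2. Class III HSP17.4B (DN14696_c0_g1) had 53.2 TPM in PF_L2, against 2.69 and 6.03 TPM in PF_L1 and PF_L3, and the chloroplast protein HSP25.3 (DN23869_c1_g1) had 53.3 TPM, against 7.30 and 4.83 TPM. A second mitochondrial HSP23.6 (DN20923_c0_g1) had 183 TPM in PF_L2, against 32.2 and 21.2 TPM in PF_L1 and PF_L3. The small HSPs left out by the TPM limit showed the same library: HSP18.5-C (DN16418_c1_g3) had 4.97 TPM in PF_L2 and at most 0.54 TPM elsewhere, and a class I unigene (DN16011_c0_g4) had 14.3 TPM there and at most 0.47 TPM elsewhere. Both share a Trinity cluster with members, so they are not separate evidence.

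Among the other classes, PF_L2 stood far apart for particular unigenes and less so, or not at all, for the most abundant ones. HSF30 (DN25179_c0_g1), a match to the tomato factor also known as HsfA2, which in tomato and Arabidopsis is made in heat and sustains small HSP expression, had 64.9 TPM in PF_L2, against 6.80 in PF_L1 and 7.92 TPM in PF_L3. HSP83A (DN22319_c0_g1), an HSP90 of the cytosol, had 124 TPM in PF_L2, against 18.5 and 21.6 TPM in PF_L1 and PF_L3. A second HSP83A (DN12906_c1_g2) had 81.6 TPM, against 10.2 and 13.3 TPM. These 3 unigenes were high in the library in which the small HSPs were high. An HSP70 unigene (DN14333_c0_g2) was listed at 21.8 TPM in PF_L2, at 0 in PF_L1 and at 0.37 TPM in PF_L3. The most abundant HSP70, HSC-2 (DN25703_c0_g2), a cognate form that cells make without stress, had 718 TPM in PF_L2, close to the 685 and 678 TPM of PF_L1 and PF_L3. The most abundant HSP90 unigene by description was HSP82 (DN23747_c0_g1), whose Nr match names ribosomal protein S10, so its identity is uncertain. It had 1263 TPM in PF_L2, below the 1268 and 1436 TPM of the other young bud libraries. The abundant HSP90-2 unigenes were moderately higher there, with 662 TPM in PF_L2, against 513 and 442 TPM in PF_L1 and PF_L3 (DN21952_c1_g4), and 538 TPM, against 422 and 349 TPM (DN21952_c1_g3). For both, PF_L2 was the highest of the 9 libraries. HSP70-3 (DN13115_c1_g1), the second most abundant HSP70, had 236 TPM in PF_L2, against 46.8 and 139.8 TPM, and was higher still in 1 PF_Z library.

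Chaperone partners outside the 81 unigenes were counted in a list of 173 unigenes. Of these, 3 passed the same 4-fold limit in PF_L2. BAG5 (DN17413_c0_g1), a partner of HSP70 in mitochondria, had 148 TPM in PF_L2, against 9.36 and 11.1 TPM in PF_L1 and PF_L3. CLPB1 (DN28209_c1_g1), the HSP101 that pulls proteins out of aggregates, had 73.9 TPM, against 15.2 and 14.1 TPM. FKBP65 (DN25675_c0_g1), a prolyl isomerase linked with heat acclimation in Arabidopsis, had 103 TPM, against 19.2 and 23.8 TPM. Outside that list and the 81 unigenes, fes1 (DN20335_c0_g1), a match to an HSP70 nucleotide exchange factor, also passed the limit. It had 42.65 TPM, against 9.81 and 8.71 TPM. MED37C (DN28028_c1_g4) passed it too, with 51.9 TPM, against 6.97 and 9.33 TPM. It shares a Trinity cluster with the member HSP70-18 (DN28028_c1_g3), which had 60.1 TPM, against 22.8 and 19.6 TPM. Since PF_L2 is 1 of 3 young bud libraries, the main counts of called members are given with it and without it. Fold changes without it are given only for a part of the unigenes.

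From the young bud to the big bud, heat shock unigenes were mostly lower. Between PF_D and PF_L, 31 of the 81 were called lower and 2 higher, while 15.7% of all unigenes were called lower and 9.38% higher (25.1% either way). The median log2 fold change was −0.90 over the 81 and −0.12 over all unigenes. Without PF_L2, 24 were called lower, all of them among the 31, and 2 higher. Of all 47924 unigenes 6726 were then called lower and 4084 higher (22.6% either way). The median was −0.72 over the 81 and −0.13 over all. Between PF_Z and PF_L, 4 were called lower and 1 higher, beside 4.70% and 2.15% of all unigenes (6.84% either way), and the medians were −0.41 and −0.21. Only 1 of those 5 calls was kept without PF_L2, beside 4.09% of all unigenes, although the log2 fold changes of the other 4 moved little, to 1.44 from 1.5 for HSFB4B (DN18253_c1_g4), to −1.29 and −1.25 from −1.41 each for the HSFB4 pair (DN18253_c1_g7 and DN18253_c1_g6), and to −2.33 from −2.47 for an HSP82 fragment (DN12906_c1_g5). Between PF_D and PF_Z, 12 were called lower and 3 higher, beside 9.07% and 8.89% of all unigenes (18.0% either way), and the medians were −0.38 and 0.08. Without PF_L2 the counts were 13 lower and 2 higher, of which 11 and 2 were shared, beside 17.6% of all unigenes. In all, 38 unigenes were called in at least 1 comparison and 43 in none. Since each stage enters 2 of the 3 comparisons, these counts do not stand for separate experiments.

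**Figure D3:**
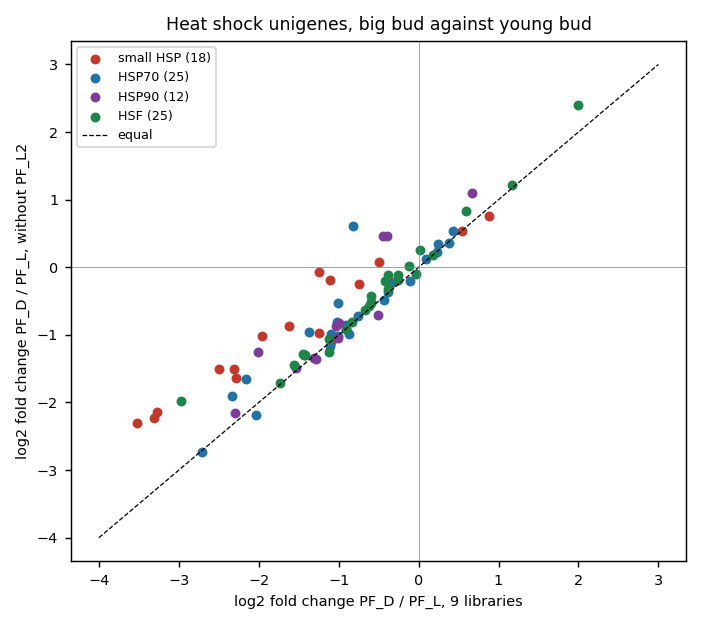
Log2 fold change of PF_D over PF_L for 80 heat shock unigenes (dots colored by class), fitted on 9 libraries (x axis) and without PF_L2 (y axis), with the dashed line at equal values. Small HSPs and a few HSP90, HSP70 and HSF unigenes lie above the line on the left, where leaving out PF_L2 makes the difference smaller.

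Among the 18 small HSPs, 10 were lower in PF_D than in PF_L, with a median log2 fold change of −1.34, and 9 were so without PF_L2, with a median of −1.0. Of all unigenes 15.7% were called lower, and 6726 of 47924 without PF_L2. HSP21 (DN12238_c1_g1) and a class I unigene (DN9931_c0_g1) are counted among the lower ones. Both reached 1 TPM only in PF_L and so passed the TPM limit through the stage in which they were high. HSP18.2 (DN16011_c0_g1) had 30.1, 329 and 38.4 TPM in PF_L1, PF_L2 and PF_L3, 16.7, 14.7 and 22.9 TPM in PF_Z, and 7.30, 6.52 and 5.64 TPM in PF_D. No library of one stage overlapped with those of another, with or without PF_L2. Its log2 fold change for PF_D over PF_L was −3.31 (SE 0.70, limma adjusted p = 0.0047), and −2.23 (adjusted p = 2.0e-04) without PF_L2. Between PF_D and PF_Z it was −1.34, which limma called only without PF_L2 (adjusted p = 0.19 with it, 0.0021 without it).

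The mitochondrial HSP23.6 (DN13481_c0_g1) had 2.84, 68.2 and 6.92 TPM in PF_L, 1.77, 2.07 and 2.02 TPM in PF_Z, and 0.090, 0.21 and 0.060 TPM in PF_D. Its log2 fold change between PF_D and PF_L was −3.52 (SE 0.82, limma adjusted p = 0.0076), and −2.30 without PF_L2. HSP17.4B (DN14696_c0_g1) had 2.69, 53.2 and 6.03 TPM in PF_L, 1.42, 0.63 and 0.51 TPM in PF_Z, and 0.11, 0.060 and 0.31 TPM in PF_D, at −3.28 for PF_D over PF_L on the log2 scale, and −2.14 without PF_L2. Both unigenes were thus near the lower end of the table in big buds, where all 3 libraries were below 1 TPM. HSP17.9-D (DN16575_c0_g1) had the highest mean of the small HSPs over 9 libraries, a rank that rests on PF_L2, since its PF_D mean of 33.2 TPM and PF_Z mean of 49.2 TPM were below those of HSP15.4 (DN27441_c0_g1), at 104 and 54.5 TPM. HSP17.9-D had 61.8, 483 and 75.6 TPM in PF_L, 44.8, 61.4 and 41.4 TPM in PF_Z, and 36.2, 30.2 and 33.3 TPM in PF_D. Its log2 fold change between PF_D and PF_L was −1.96 (SE 0.61, limma adjusted p = 0.031), and −1.02 (adjusted p = 0.0057) without PF_L2, so that a smaller difference stood out more clearly from the replicate spread. A class I unigene (DN4530_c0_g1) did not move with PF_L2: it had 15.4, 14.8 and 14.2 TPM in PF_L, 11.4, 12.4 and 20.4 TPM in PF_Z, and 4.08, 8.28 and 7.45 TPM in PF_D, and fell by 1.10 between PF_D and PF_L and by 1.05 between PF_D and PF_Z on the log2 scale. Between PF_Z and PF_L, limma called 0 small HSPs, though 9 were lower at an unadjusted p under 0.05, or 7 without PF_L2.

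Not every small HSP declined. HSP15.4 (DN27441_c0_g1) had 80.3, 46.3 and 46.5 TPM in PF_L, 42.0, 31.0 and 90.4 TPM in PF_Z, and 103, 101 and 107 TPM in PF_D. The big bud libraries were the highest of the 9, and PF_L2 was among the low ones. Its log2 fold change between PF_D and PF_Z was 1.06 (SE 0.35, limma adjusted p = 0.045), which became adjusted p = 0.057 without PF_L2. A class I unigene (DN16790_c0_g1) with 59.9, 169 and 59.0 TPM in PF_L, 83.7, 45.0 and 49.6 TPM in PF_Z, and 40.3, 55.8 and 55.2 TPM in PF_D was not called in any comparison. The second HSP23.6 (DN20923_c0_g1) was not called either, with 32.2, 183 and 21.2 TPM in PF_L, 23.9, 29.4 and 19.4 TPM in PF_Z, and 47.1, 15.2 and 16.3 TPM in PF_D. The 2 mitochondrial HSP23.6 unigenes were therefore both high in PF_L2 and differed in the big bud, where only the less abundant one was below 1 TPM.

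**Figure D4:**
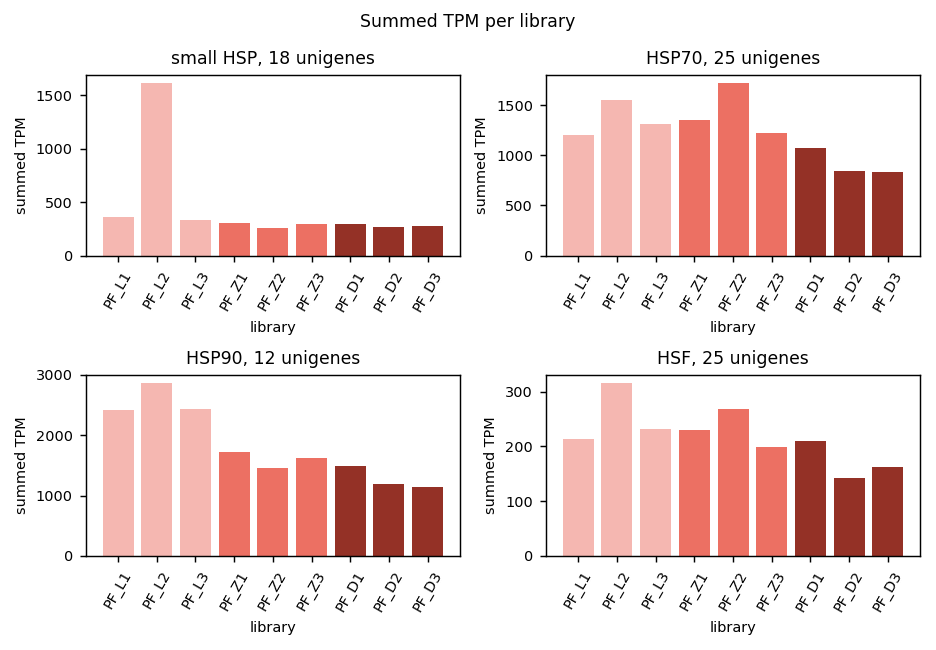
Summed TPM of the unigenes of each class in each library (bars, from 0), with libraries in the order of stages PF_L, PF_Z and PF_D. The small HSP sum is 1612 in PF_L2 and 260 to 359 elsewhere, while the HSP90 sum is 1145 to 1483 in PF_D and 2422 to 2857 in PF_L.

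HSP90 unigenes were mostly lower in big buds than in young buds. Their sum was 2573 ± 246 TPM in PF_L, 1598 ± 137 TPM in PF_Z and 1271 ± 184 TPM in PF_D (SD, n = 3 each). Of the 12 unigenes, 7 were called lower in PF_D than in PF_L (median log2 fold change −1.02), and 6 without PF_L2. Of all unigenes 15.7% were called lower, and 6726 of 47924 without PF_L2. The largest part of the young bud sum came from HSP82 (DN23747_c0_g1), whose Nr match names the ribosomal protein S10 of the small subunit, so its identity is uncertain. It had 1268, 1263 and 1436 TPM in PF_L, 897, 651 and 854 TPM in PF_Z, and 652, 653 and 659 TPM in PF_D, and its log2 fold change between PF_D and PF_L was −1.01 (SE 0.17, limma adjusted p = 0.0013). Without it the HSP90 sum was 1251 ± 306 TPM in PF_L, 798 ± 33.6 TPM in PF_Z and 617 ± 187 TPM in PF_D.

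The HSP90 forms of the organelles were lower in big buds than in young buds. HSP90-5 (DN26772_c0_g1), the HSP90 of chloroplasts, had 61.1, 51.6 and 58.9 TPM in PF_L, 37.2, 32.9 and 41.5 TPM in PF_Z, and 18.2, 27.3 and 23.7 TPM in PF_D. Its log2 fold change between PF_D and PF_L was −1.29 (SE 0.17, limma adjusted p = 2.8e-04), and a shorter unigene of the same cluster (DN26772_c0_g3) fell by 1.31, with PF_D libraries of 19.7, 44.2 and 39.5 TPM that overlapped with the 50.4, 38.1 and 58.5 TPM of PF_Z. HSP90-6 (DN25999_c0_g1), the mitochondrial form, had 29.7, 32.6 and 28.7 TPM in PF_L, 19.9, 23.4 and 25.3 TPM in PF_Z, and 7.49, 12.6 and 9.86 TPM in PF_D. It fell by 1.54 between PF_D and PF_L (SE 0.19, limma adjusted p = 1.7e-04) and by 1.14 between PF_D and PF_Z (adjusted p = 0.0018). For HSP90-6 and the longer HSP90-5 unigene the stages did not overlap, and PF_L2 was the lowest young bud library for that HSP90-5 and the highest for HSP90-6. Among the cytosolic forms, HSP90-2 (DN21952_c1_g4) had 513, 662 and 442 TPM in PF_L, 336, 325 and 318 TPM in PF_Z, and 413, 217 and 196 TPM in PF_D. Its fall by 1.03 between PF_D and PF_L was called (limma adjusted p = 0.013) but not without PF_L2 (−0.87, adjusted p = 0.055), and PF_D1 overlapped with PF_Z. The other HSP90-2 unigene of the cluster (DN21952_c1_g3) had a log2 fold change of −0.99 and was not called. An HSP82 fragment (DN22319_c0_g2) had 2.56, 17.5 and 3.18 TPM in PF_L, 0.99, 2.22 and 0.87 TPM in PF_Z, and 0.95, 0.66 and 0.31 TPM in PF_D, and was called lower in PF_D than in PF_L with PF_L2 (−2.01) and without it (−1.25). A fragment of 219 bp matching HSP82 (DN12906_c1_g5) had 9.05, 7.06 and 2.59 TPM in PF_L, 0, 0.72 and 0 TPM in PF_Z, and 0, 1.44 and 0 TPM in PF_D, and was the 1 HSP90 called lower in PF_Z than in PF_L (−2.47, limma adjusted p = 0.014), a call lost without PF_L2 (−2.33, adjusted p = 0.055). The HSP83A unigenes that were high in PF_L2 were not called between stages: DN22319_c0_g1 had 18.5, 124 and 21.6 TPM in PF_L, 21.6, 33.8 and 22.3 TPM in PF_Z, and 35.0, 24.9 and 24.6 TPM in PF_D.

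Counted by the compartment in the description, 5 of 7 chloroplast members were called lower in PF_D than in PF_L, both with and without PF_L2. HSP21 (DN12238_c1_g1), 1 of these 5, reached 1 TPM only in PF_L. It so passed the TPM limit through the stage in which it was high, which favors a difference. Of 5 mitochondrial members 3 were called lower, and 2 without PF_L2. Of all unigenes 15.7% were called lower with PF_L2, and 6726 of 47924 without it. The chloroplast members include DN26772_c0_g1 and DN26772_c0_g3, and DN18737_c0_g1 and DN18737_c0_g2. As each pair is of 1 cluster, these members are not all separate evidence. A difference between compartments was not tested. The 5 chloroplast HSP70 and HSP90 unigenes summed to 293 ± 11.4 TPM in PF_L, 189 ± 27.7 TPM in PF_Z and 135 ± 18.5 TPM in PF_D (SD, n = 3 each), and the light-harvesting sum given above moved in the same direction, which was not tested further.

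HSP70 transcripts were dominated by a few unigenes with differing courses. Of 25 unigenes 8 were called lower in PF_D than in PF_L, with a median log2 fold change of −0.87, and 4 without PF_L2. The called share, all of it lower, was 32.0%, beside 15.7% of all unigenes called lower (25.1% either way). Without PF_L2 it was 16.0%, beside 6726 of 47924 unigenes called lower (22.6% either way), so that the share was then near that of all unigenes. HSC-2 (DN25703_c0_g2) carried the largest share, with 685, 718 and 678 TPM in PF_L, 769, 849 and 770 TPM in PF_Z, and 697, 453 and 473 TPM in PF_D. It was called in no comparison, as its changes were less than 1 on the log2 scale. HSP70-14 (DN26527_c0_g1), a relative of HSP110 proteins, which act as nucleotide exchange partners of HSP70, had 91.2, 86.9 and 84.2 TPM in PF_L, 66.9, 74.7 and 77.6 TPM in PF_Z, and 103, 108 and 97.9 TPM in PF_D, a difference of 0.49 between PF_D and PF_Z that was also below the limit of the call. Chloroplast and mitochondrial forms differed. The stromal HSP70 (DN18737_c0_g1) had 123, 117 and 118 TPM in PF_L, 87.4, 63.2 and 80.8 TPM in PF_Z, and 53.6, 64.7 and 58.0 TPM in PF_D, and fell by 1.01 between PF_D and PF_L (SE 0.15, limma adjusted p = 5.5e-04). The mitochondrial HSP70 (DN23065_c0_g1) had 73.4, 72.0 and 63.0 TPM in PF_L, 60.3, 66.2 and 82.7 TPM in PF_Z, and 57.3, 92.3 and 76.4 TPM in PF_D, with a log2 fold change of 0.09 (SE 0.19) between PF_D and PF_L. The difference between the 2 unigenes was not tested.

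A unigene matched to the cognate HSC-I (DN14821_c0_g1) had the lowest adjusted p of the class. Its Nr match names an uncharacterized protein, so its identity is uncertain. It had 16.9, 15.8 and 16.1 TPM in PF_L, 4.90, 3.89 and 3.96 TPM in PF_Z, and 2.16, 1.62 and 1.19 TPM in PF_D. It fell by 2.72 between PF_D and PF_L (SE 0.20, limma adjusted p = 7.9e-06) and by 1.72 between PF_Z and PF_L (adjusted p = 9.9e-04), and was the 1 member called between PF_Z and PF_L both with and without PF_L2. A pair of HSP70 unigenes varied strongly between libraries of the same stage. HSP70-3 (DN13115_c1_g1), a cytosolic form, had 46.8, 236 and 139.8 TPM in PF_L, 168, 406 and 69.1 TPM in PF_Z, and 41.0, 18.7 and 20.3 TPM in PF_D. An HSC-2 unigene (DN24873_c0_g1) had 21.5, 97.2 and 68.6 TPM in PF_L, 79.6, 139.6 and 27.5 TPM in PF_Z, and 12.9, 7.62 and 8.92 TPM in PF_D. In both PF_Z2 and PF_L2 were the high libraries and PF_Z3 and PF_L1 the low ones of their stages, and only PF_D was low in all of its libraries. The log2 fold changes between PF_D and PF_Z were −2.70 for HSP70-3 (limma adjusted p = 0.015) and −2.69 for HSC-2 (adjusted p = 0.0095), while those between PF_D and PF_L, −2.17 and −2.34, were −1.66 and −1.90 without PF_L2 and then not called (adjusted p = 0.11 and 0.056).

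The factors followed several courses. Of 25 HSF unigenes 6 were lower and 2 higher in PF_D than in PF_L, 2 lower and 1 higher in PF_Z than in PF_L, and 6 lower and 2 higher in PF_D than in PF_Z. Without PF_L2, 5 were lower and 2 higher in PF_D than in each of the other stages, and limma called 0 between PF_Z and PF_L, where 4 were lower and 4 higher at an unadjusted p under 0.05. Called either way were thus 32.0%, 12% and 32.0% of the HSFs in that order of comparisons, beside 25.1%, 6.84% and 18.0% of all unigenes, and without PF_L2 28%, 0% and 28%, beside 22.6%, 4.09% and 17.6%. The most abundant HSFs were called in no comparison. These were HSFA5 (DN19182_c0_g1), which in Arabidopsis and tomato represses HSFA4, HSFC1 (DN21753_c0_g1), whose log2 fold change of −1.12 between PF_D and PF_L missed the limit (limma adjusted p = 0.053), HSFA2B (DN22694_c0_g1), and 2 relatives of HSFA1, the constitutive activators of the heat response, namely HSFA1A (DN18253_c1_g2) and HSF8 (DN25363_c0_g1). HSF8 had 14.1, 19.2 and 14.3 TPM in PF_L, 8.84, 13.7 and 16.1 TPM in PF_Z, and 13.0, 14.8 and 15.6 TPM in PF_D, so its stages overlapped.

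**Figure D5:**
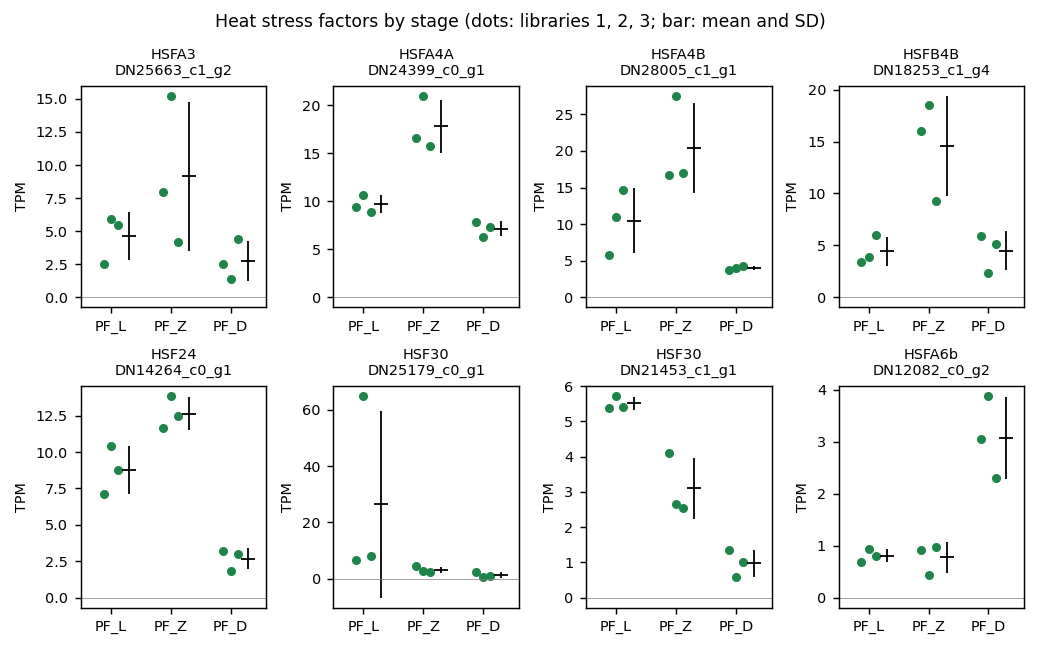
TPM of 8 HSF unigenes by stage, with a dot for each library and a bar for the mean and SD of 3. HSFA3, HSFA4A, HSFA4B, HSFB4B and HSF24 are highest in PF_Z, HSF30 declines apart from the dot of PF_L2 at 64.9 TPM, and HSFA6b is highest in PF_D.

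A group of factors had its highest stage mean at the beginning of coloration. HSFA4B (DN28005_c1_g1), of the A4 group of activators linked with oxidative stress in Arabidopsis, had 5.78, 11.0 and 14.6 TPM in PF_L, 16.7, 27.5 and 17.0 TPM in PF_Z, and 3.71, 3.94 and 4.23 TPM in PF_D. It fell by 2.07 between PF_D and PF_Z (SE 0.30, limma adjusted p = 9.1e-04). Its log2 fold change between PF_D and PF_L was −1.13 (limma adjusted p = 0.016), a call lost without PF_L2 (−1.06, adjusted p = 0.054). HSFA4A (DN24399_c0_g1) had 9.43, 10.7 and 8.89 TPM in PF_L, 16.6, 21.0 and 15.8 TPM in PF_Z, and 7.85, 6.28 and 7.33 TPM in PF_D, and fell by 1.20 between PF_D and PF_Z (limma adjusted p = 8.2e-04). In both the 3 PF_Z libraries were above all others. HSFA4A was higher by 0.81 in PF_Z than in PF_L (adjusted p = 0.018), which is below the fold limit. HSF24 (DN14264_c0_g1), a match to the tomato class B factor also named HsfB1, had 7.09, 10.4 and 8.79 TPM in PF_L, 11.6, 13.9 and 12.5 TPM in PF_Z, and 3.17, 1.82 and 3.02 TPM in PF_D. It fell by 1.91 between PF_D and PF_Z (SE 0.22, limma adjusted p = 2.3e-04) and by 1.42 between PF_D and PF_L (adjusted p = 6.9e-04).

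HSFB4B (DN18253_c1_g4), related to an Arabidopsis class B factor that acts in asymmetric division of root stem cells, had 3.41, 3.86 and 6.0 TPM in PF_L, 16.0, 18.5 and 9.24 TPM in PF_Z, and 5.92, 2.34 and 5.12 TPM in PF_D. It was the 1 member called higher in PF_Z than in PF_L, at 1.5 (SE 0.34, limma adjusted p = 0.023), and this call was lost without PF_L2 (1.44, adjusted p = 0.076), where the difference hardly moved and 1 library fewer entered the fit. Between PF_D and PF_Z it fell by 1.53 (adjusted p = 0.0084). HSFA3 (DN25663_c1_g2), which in Arabidopsis is switched on by DREB2A in heat, had 2.51, 5.89 and 5.45 TPM in PF_L, 7.98, 15.2 and 4.18 TPM in PF_Z, and 2.50, 1.37 and 4.40 TPM in PF_D. Its fall by 1.36 between PF_D and PF_Z stood at adjusted p = 0.049 with limma, and at 0.062 without PF_L2, and PF_Z3 was below PF_D3.

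The HSF30 relatives fell to the big bud. HSF30 (DN25179_c0_g1) had 6.80, 64.9 and 7.92 TPM in PF_L, 4.38, 2.77 and 2.21 TPM in PF_Z, and 2.36, 0.59 and 0.79 TPM in PF_D, with a log2 fold change of −2.97 for PF_D over PF_L (SE 0.70, limma adjusted p = 0.0082), and of −1.97 without PF_L2 (adjusted p = 0.0054). A second HSF30 (DN21453_c1_g1) had 5.39, 5.72 and 5.42 TPM in PF_L, 4.09, 2.66 and 2.55 TPM in PF_Z, and 1.35, 0.58 and 1.0 TPM in PF_D. It fell by 1.74 between PF_D and PF_L (SE 0.25, limma adjusted p = 4.9e-04) and by 1.05 between PF_D and PF_Z (adjusted p = 0.012). The 2 matches to the same tomato factor thus shared the decline, while PF_L2 stood out in only 1 of them.

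The factors higher in big buds were of low abundance. HSFA6b (DN12082_c0_g2), which in Arabidopsis links abscisic acid with heat and drought responses, had 0.68, 0.93 and 0.79 TPM in PF_L, 0.91, 0.43 and 0.98 TPM in PF_Z, and 3.05, 3.88 and 2.30 TPM in PF_D. It reached 1 TPM only in the 3 PF_D libraries and so passed the TPM limit through the stage in which it was high, which favors a difference. Its log2 fold changes of 1.16 between PF_D and PF_L and 1.20 between PF_D and PF_Z, both counted among the calls, are therefore given as a description. A fragment of 208 bp matching HSFC1 (DN13367_c2_g1) had 1.13, 2.38 and 0 TPM in PF_L, 1.67, 0 and 2.33 TPM in PF_Z, and 7.26, 7.31 and 5.60 TPM in PF_D, with log2 fold changes of 1.99 between PF_D and PF_L and 1.89 between PF_D and PF_Z. In HSFA6b and this fragment the PF_D libraries were above all others. The longer and more abundant HSFC1 unigene (DN21753_c0_g1) had 34.2, 20.4 and 21.7 TPM in PF_L, 24.9, 9.93 and 26.3 TPM in PF_Z, and 6.27, 12.2 and 16.2 TPM in PF_D, with the PF_D libraries below all of PF_L. A pair of HSFB4 unigenes of 1 cluster (DN18253_c1_g7 and DN18253_c1_g6) was listed at 0 in all 3 PF_D libraries and at most at 0.17 TPM in PF_Z, and had 1.46, 2.50 and 2.01 TPM and 1.46, 2.41 and 1.43 TPM in PF_L. They too reached 1 TPM in the 3 libraries of a single stage, here PF_L, so that their log2 fold changes of −1.57 and −1.45 between PF_D and PF_L, and of −1.41 for each between PF_Z and PF_L, are a description, although they are counted among the calls.

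AHSA1 (DN18420_c0_g1) was called in no comparison, with 36.0, 50.1 and 33.3 TPM in PF_L, 28.5, 30.7 and 30.4 TPM in PF_Z, and 31.5, 27.9 and 27.1 TPM in PF_D. Its highest value was again in PF_L2.

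A few matches named an animal protein and had a library pattern of their own. Hsp83 (DN4383_c0_g1), best matched in the silk moth Bombyx mori, was listed at 8.90 TPM in PF_D3, 2.94 TPM in PF_Z2, 1.49 TPM in PF_L2, 0.48 TPM in PF_Z3 and 0 in the 5 other libraries. HSP90AB1 (DN580_c0_g1), below the TPM limit, had 9.15 TPM in PF_D3 and 4.65 TPM in PF_Z2 and at most 0.41 TPM elsewhere. An HSP70 cognate matched in the moth Manduca sexta (DN25703_c0_g3), also below the limit, had 6.65 TPM in PF_D3 and 6.20 TPM in PF_Z2 and at most 0.20 TPM elsewhere. This cognate shares a Trinity cluster with the most abundant HSP70, HSC-2 (DN25703_c0_g2). The Nr matches of the 3 were nevertheless labelled as plant proteins, 2 of Anthurium amnicola and 1 of Nicotiana sylvestris. PF_D3 and PF_Z2 were the highest libraries for all 3 unigenes, of which only Hsp83 was tested and was not called, and the origin of these transcripts was not tested.

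At the limit of 1 TPM in 3 libraries, the members just inside were a class I small HSP (DN9931_c0_g1) whose value in the third of these libraries was 1.0 TPM and HSP26.5 (DN12943_c0_g1) with 1.09 TPM. Just outside were HSP18.5-C (DN16418_c1_g3) with 0.52 TPM and HSP90AB1 (DN580_c0_g1) with 0.41 TPM. As a unigene that is low in 2 stages passes only through the remaining stage, the counts above are of unigenes that passed and not of all heat shock genes of the petal. Of the 81, 6 reached 1 TPM in a single stage only, and these gave 4 of the 31 lower and 1 of the 2 higher calls between PF_D and PF_L, 2 of the 4 lower calls between PF_Z and PF_L, and 1 of the 12 lower and 1 of the 3 higher calls between PF_D and PF_Z.

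Among the 173 partner unigenes, 34 were lower and 10 higher in PF_D than in PF_L, with a median log2 fold change of −0.28, and 29 and 9 without PF_L2. Called lower were 19.7%, beside 15.7% of all unigenes. Called either way were 25.4%, beside 25.1% of all unigenes, and 22.0% without PF_L2, beside 22.6%. The share called either way was thus near that of all unigenes. The chaperonins, barrel-shaped complexes that fold newly made proteins, had 9 of 22 lower (40.9%, beside 15.7% of all unigenes) and 1 higher, the same counts without PF_L2. The 1 higher was RBCX2 (DN17302_c0_g1), which assembles Rubisco and is no barrel subunit, at a log2 fold change of 1.97. CPN60B4 (DN24063_c0_g1) of the chloroplast had 20.2, 13.9 and 18.0 TPM in PF_L, 8.35, 5.15 and 7.13 TPM in PF_Z, and 2.29, 1.97 and 2.90 TPM in PF_D, and fell by 2.43 between PF_D and PF_L (SE 0.23, limma adjusted p = 3.0e-05). Of 91 DnaJ proteins, the partners of HSP70, 10 were lower and 6 higher (17.6% called), beside the 25.1% called among all unigenes. Of 14 Clp chaperones 4 were lower (28.6%, beside 15.7% of all unigenes). Without PF_L2, 2 were lower (14.3%, beside 6726 of 47924 unigenes), so that the share was then near that of all unigenes. Of 9 BAG proteins 3 were lower and 2 higher (55.6% called, beside 25.1% of all unigenes). One of the higher was BAG1 (DN24420_c0_g1), with 6.32, 4.10 and 5.41 TPM in PF_L, 3.52, 3.22 and 10.1 TPM in PF_Z, and 104, 143 and 95.8 TPM in PF_D. It was 4.19 higher in PF_D than in PF_L on the log2 scale (SE 0.34, limma adjusted p = 1.4e-05). Another BAG1 (DN22272_c0_g2), more abundant, had a log2 fold change of 0.41 (SE 0.28) and was not called.

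Of 13 organizers and isomerases 2 were lower (15.4%, beside 15.7% of all unigenes). The list also held 19 unigenes of families in which targets of heat stress factors are reported elsewhere. They were picked by family name in the description, and whether they are such targets was not tested. Of these 19, 6 were lower and 1 higher, or 36.8% called, and 3 were lower without PF_L2, or 15.8% called. Over all unigenes 25.1% were called with PF_L2 and 22.6% without it. MBF1C (DN18013_c0_g3), a coactivator made in heat, had 18.3, 55.5 and 11.8 TPM in PF_L, 4.31, 13.8 and 4.84 TPM in PF_Z, and 7.98, 1.18 and 1.63 TPM in PF_D, and PF_L2 was again its highest library. Cytosolic ascorbate peroxidase APX1 (DN24696_c1_g3), which removes hydrogen peroxide, had 1208, 1228 and 1179 TPM in PF_L, 943, 953 and 991 TPM in PF_Z, and 557, 575 and 574 TPM in PF_D, with PF_L2 close to its mates, and fell by 1.08 between PF_D and PF_L (limma adjusted p = 2.7e-04). The 5 HSP70 and HSP90 forms of the endoplasmic reticulum gave 0 calls with limma between PF_D and PF_L, where 2 were lower at an unadjusted p under 0.05.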

How the data were processed

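Petal RNA of 3 stages was sequenced by the authors, who assembled all reads de novo with Trinity and annotated the unigenes against SwissProt and Nr. The deposited values are TPM made by the authors, with a program that is not given in the sources used here. Tools in the submitters' notes, each without a role, were Bowtie 0.12.2, HISAT2 2.0 and StringTie 1.3.0, beside the mouse build mm8. TPM summed to 993148 to 994911 per library over the unigenes listed. As TPM keeps no counts, edgeR, the test in the methods of the study, could not be run.

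Members were chosen by SwissProt description and grouped by its wording. The members and lists were chosen with earlier results of these data known. On log2(TPM + 1), limma 3.58.1 (R 4.3.3) was fitted to all 9 libraries with a mean for each stage and a variance trend, and p-values were adjusted by Benjamini-Hochberg over 47924 unigenes. The procedure was tested on simulated data. Named unigenes were the 5 most abundant of each class, the 3 largest called rises and falls of each class and comparison with a stage mean of at least 5 TPM, every called HSF, and those at the TPM limit. Of the partner list, the most abundant member of a group or its largest rise or fall was named. Animal matches and unigenes described for PF_L2 were chosen after their values were seen. Results were also computed with other pseudocounts (0.1, 5), without the filter or with one of 5 TPM, after median-ratio or quantile scaling, on only the libraries of the pair of stages, with robust or untrended variances, with a replicate block, at an adjusted p limit of 0.01, and without each library. Names in the RefSeq table have no link to Trinity identifiers, so no sequences are shown. Plots were made in Python 3.11.15 (matplotlib 3.10.9).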

Additional observations from a re-analysis of the deposited data

How the results depend on the processing

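Over 9 libraries, 33 heat shock unigenes were called for PF_D over PF_L, 5 for PF_Z over PF_L and 15 for PF_D over PF_Z. In that order the counts were 17, 3 and 5 with 5 added to the TPM, and 21, 1 and 6 with an adjusted p limit of 0.01. A filter of 5 TPM, which tests fewer unigenes, left 21 calls for PF_D over PF_L and 2 for PF_Z over PF_L. Without 1 library at a time, the counts ran from 26 to 37 for PF_D over PF_L, from 1 to 7 for PF_Z over PF_L and from 9 to 15 for PF_D over PF_Z. The low counts for PF_Z over PF_L were 3 without PF_Z1, 2 without PF_Z2 and 1 without PF_L2, and the low count for PF_D over PF_Z was 9 without PF_D2. Beyond the smaller number of libraries or unigenes, the cause was not tested. Median-ratio scaling moved the median log2 fold change of all unigenes for PF_Z over PF_L to −0.03, against −0.21, and called 2 members higher and 4 lower there in place of 1 and 4. Replicate numbers did not pair the samples (correlations of −0.096 to 0.043 over 9 same-numbered pairs), and with a replicate block 35, 5 and 12 unigenes were called. For the named members that were called, 742 of the alternative log2 fold changes stayed on their side of the limits, 121 lost the call and 5 passed a limit that they had missed, and 0 changed direction. HSFA3 and HSP15.4 for PF_D over PF_Z were the least stable, with the call kept under 5 of 20 alternatives each.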
